A study of Mus musculus with 24 samples.

Results

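The cytosolic ribosomal protein genes encode the proteins of the large (Rpl, Rplp) and small (Rps, Rpsa) ribosomal subunits. The rule takes genes by symbol alone, after each probe's transcript accession had been matched to a RefSeq symbol, and uses no measured value. Of 84 mouse symbols of this form, 81 had a probe on the array, 50 for the large subunit and 31 for the small, and Rpl6l and Rpl32p were among those with none. These 81 genes were covered by 146 of the 56605 probes on the array, or 0.258%. A probe was tested where at least 1 group had it well above background on 2 or more of its 4 arrays, which left 78 genes and 143 probes among 37684 tested probes. The genes left out were Rpl10l, Rpl39l and Rpl3l, paralogs known for expression in few tissues, which were well above background on 2, 1 and 0 of the 24 arrays.

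The cells were TM3, an established line of mouse Leydig cells, the testosterone-producing cells of the testis. They were either given nanosecond pulsed electric fields (nsPEF, 80 pulses of 60 ns at 14 kV/cm) or sham-exposed, and harvested at 0, 4 or 24 h. Each of the 6 groups (S0, S4 and S24 for sham, E0, E4 and E24 for nsPEF) held 4 samples on 4 one-colour arrays, 24 in all. All groups share the cell line, the labels name no genetic change between them, and a single line stands here for the cell type.

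A ribosome is built from ribosomal RNA and equal numbers of most ribosomal protein, so the messages of these proteins are among the most abundant of a growing cell. In mammals most of them begin with a cytosine followed by a run of pyrimidines, the 5′ terminal oligopyrimidine (TOP) tract, through which their translation follows mTOR signalling and the binding protein LARP1. Arrays measure the amount of message and not its translation. Ribosomal protein genes also have many processed pseudogenes of near-identical sequence, and a probe cannot tell such a copy from the parent gene.

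The stretch around the transcription start is shown for 4 members whose start window holds the letters CTTTC within a run of pyrimidines. It is also shown for 1 of the 2 annotated starts of Rps27l, a paralog of Rps27. That window holds CCGGAA instead, and the window of the other start holds neither. In Rpl4 the letters CTTTC lie before the annotated start, outside the annotated message. Whether the marked letters belong to TOP tracts was not tested. Each window holds the 20 bases before the annotated start and the first 25 from it, on the transcribed strand, from RefSeq promoters of build GRCm38.p6. Capitals mark the motif letters.
Rplp2: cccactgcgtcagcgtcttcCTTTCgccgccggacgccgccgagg
Rpl4: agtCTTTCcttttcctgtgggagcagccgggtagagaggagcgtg
Rpl18: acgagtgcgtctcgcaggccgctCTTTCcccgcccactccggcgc
Rpl38: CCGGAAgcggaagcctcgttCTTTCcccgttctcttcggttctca
Rps27l: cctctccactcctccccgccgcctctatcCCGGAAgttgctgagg

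These windows lie on the plus strand at chr7:141447631-141447675 for Rplp2, chr9:64173367-64173411 for Rpl4, chr7:45718051-45718095 for Rpl18, chr11:114668560-114668604 for Rpl38 and chr9:66946066-66946110 for Rps27l. Promoters were found for 58 of the 78 tested genes. CTTTC on the transcribed strand stood in this window in 18 of those 58 genes (31%) and in 7.12% of all 27025 genes with a promoter, and on the opposite strand in 5.17% and 6.43%. In the whole 300-base promoter, the letters TTCCGG or their reverse complement CCGGAA, the core bound by Ets-family factors, stood in 32 of 58 (55.2%) against 16.7% of all genes. The letters TATAA on either strand of the whole promoter stood in 29.3% against 28% of all genes, and CTTTC in 81% against 60.6%. In the start window TATAA stood in 4 of the 58 genes (6.9%) on the transcribed strand, against 2.12% of all genes. On the opposite strand of that window it stood in 3.45% against 1.79%. No base of the windows printed belongs to both CTTTC and CCGGAA. These counts describe letters and not bound sites.

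The labelled cell type was checked against marker genes. Of 9 Leydig cell genes, Star, Cyp17a1 and Nr5a1 were well above background on all 24 arrays, whereas Cyp11a1, Hsd3b6, Hsd17b3 and Lhcgr were so on 0 arrays and Hsd3b1 on 1 at most, and Insl3 had no probe under its symbol. Ptprc, Cdh5 and Tek, which define leukocytes and endothelium, were well above background on 1, 0 and 0 arrays at most. Some genes on the other lists, among them Acta2, Csf1r, Cd68, Sox9 and Pecam1, were measured on all 24. Between 0 and 24 h in sham cells the 3 Leydig markers fell, their summed signal going from between 4.34 and 6.26 to between 2.60 and 3.87 times the 75th percentile. The 2 tested of 4 Sertoli cell markers (Sox9, Rhox5) went from between 1.27 and 1.30 to between 0.285 and 0.341, and the 2 tested of 4 macrophage markers (Cd68, Csf1r) from between 3.09 and 3.29 to between 1.64 and 1.88, and both pairs fell. Under spike-in scaling the Sertoli pair still fell, but 1 Leydig marker rose and 0 fell, and 1 of the 2 macrophage markers fell. Pecam1, the 1 tested of 3 endothelial genes, rose from between 0.106 and 0.131 to between 0.159 and 0.210 (not called with normexp background correction). At 4 h in sham cells the macrophage pair summed to between 4.78 and 5.78, with 1 gene called higher and 1 lower, and the 3 smooth muscle genes (Acta2, Myh11, Cnn1) went from between 28.7 and 36.3 to between 46.3 and 58.4, with 2 called higher. The part of these genes in the ribosomal protein results was not tested. Arrays of 1 time point shared a slide, so slide and time cannot be told apart, and the treatments lay in different rows of the slide, so row and treatment cannot either. The 75th percentile of signal ranged from 201.8 to 532.7 intensity units over the arrays, and the highest belonged to sham 4 h replicate 4, which stood apart from its group.

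Levels are given as log2 signal minus the array's 75th percentile. The 78 genes had a median level of 8.04, a signal 263.1 times that of the percentile, and only 178 of the 37684 tested probes were brighter than this median. Of the 78 genes, 76 had a mean level above 6, and 28 of the 100 brightest tested probes were ribosomal protein probes. The exceptions were Rpl37, a large-subunit protein whose single probe averaged -2.73, and Rps4l, annotated as a transcribed pseudogene, at -4.42. Levels of different genes rest on different probes and are therefore no ranking of the messages.

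The median level over the 78 genes was 8.18, 8.13, 8.16 and 8.01 on the 4 arrays of S0. It was 8.18, 8.31, 7.95 and 7.99 in E0. In S4 it was 8.07, 8.04, 8.04 and 7.52, and in E4 8.11, 8.13, 8.16 and 8.13. Sham 4 h replicate 4 lay far below the other arrays of its group, whose SD was 0.263 with it, against 0.0195 in E4. At 24 h the medians were 7.79, 7.81, 7.87 and 7.91 in sham and 7.82, 8.07, 7.88 and 7.94 in nsPEF. All 4 sham 24 h arrays lay below all 4 sham 0 h arrays. Before the percentile was subtracted, the median log2 signal of the 78 genes ran from 15.97 to 16.58, a span of 0.61, against 1.4 for the percentile itself. The highest of these, 16.58, was that of sham 4 h replicate 4. Its low level of 7.52 is relative to its percentile of 9.06, also the highest. The plot of levels by array shows the same arrays beside 428 other probes of like signal (those with a mean between the 10th and 90th percentile of the members, 7.08 to 8.52), whose medians moved up and down with those of the members.

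**Figure D1:**
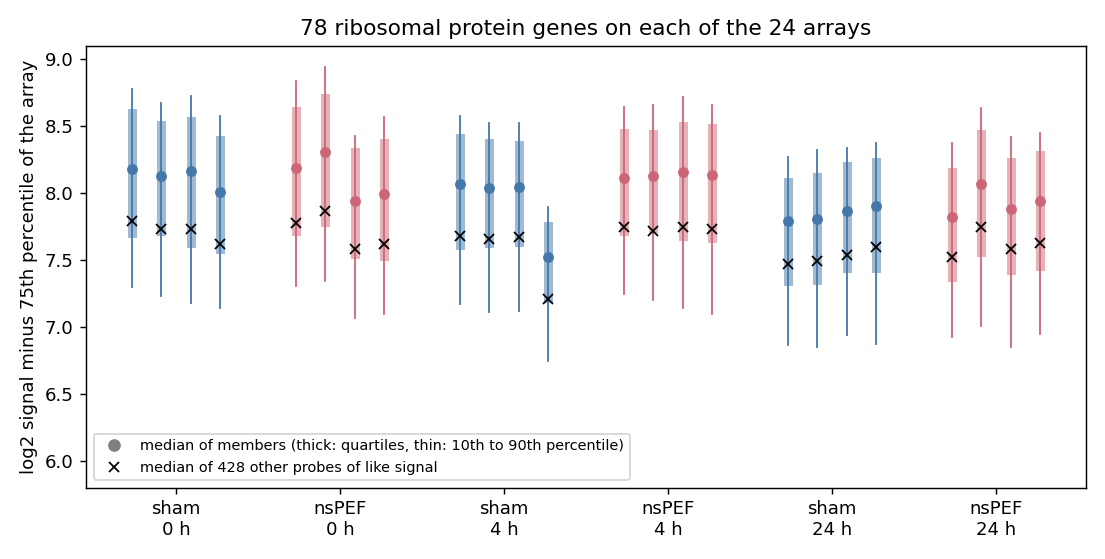
Log2 signal minus the array's 75th percentile for the 78 tested ribosomal protein genes on each of the 24 arrays (vertical axis), by group (horizontal axis, 4 arrays each). Circles are medians over genes, thick bars quartiles and thin bars the 10th to 90th percentile, and crosses the median of 428 other probes of like signal; the fourth sham 4 h array is lowest at 7.52.

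In sham cells at 24 h, most ribosomal protein genes were measured lower than at 0 h. With limma's moderated test and Benjamini-Hochberg adjustment, 52 of 78 fell and 1 rose, against 36.6% of all tested probes called in either direction and 19.7% called lower. The median log2 difference was -0.31, beside -0.00096 over all tested probes. It was -0.05 under quantile normalization, with 11 called lower and 4 higher, and -0.12 under cyclic loess, with 21 lower and 2 higher. The members' median kept its sign under all scalings except that to spike-in RNA. There it was 0.42, while the median of all tested probes shifted by 0.73. The member that rose under the percentile scaling was Rpl37, whose dim probe is described below. It did not pass with normexp background correction (limma adjusted p = 0.20). Among the 428 other probes of like signal, 210 fell and 8 rose, with a median of -0.27. The levels of all 4 S24 arrays lay below all 4 S0 arrays for 68 of the 78 genes, beside 21.8% of all tested probes and 70.8% of those of like signal. The small subunit counted 22 lower of 31 with a median of -0.32, and the large subunit 30 lower of 47 with a median of -0.31, and the medians were 0.41 and 0.42 under spike-in scaling.

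Among the members with the largest called falls between 0 and 24 h in sham cells were Rps20, Rpsa, Rps4x and Rps18. Rps20, a small-subunit head protein, read 8.93, 8.73, 8.88 and 8.68 in S0 and 8.32, 8.36, 8.37 and 8.34 in S24. The groups did not overlap, and the difference was -0.46 ± 0.15 (SE, n = 4 per group, limma adjusted p = 0.018). Rpsa, also known as the laminin receptor precursor, went from between 8.31 and 8.47 in S0 to 7.83, 7.88, 7.98 and 8.13 in S24, a difference of -0.45 ± 0.13 (limma adjusted p = 0.011). Rps4x, the X-linked form of S4, differed by -0.44 ± 0.10 (limma adjusted p = 0.0017), and Rps18 by -0.43 ± 0.14 (limma adjusted p = 0.021). All of these differences were positive under spike-in scaling, between 0.27 and 0.30. The call was lost without S0 replicate 1 for Rps20, and without S0 replicate 1 or 3 or S24 replicate 1 for Rps18. The count of 53 called genes fell to 25, 34 and 32 without S0 replicate 1, 2 or 3 and to 26 and 31 without S24 replicate 1 or 2.

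By role, the 3 proteins of the P stalk, which recruits elongation factors, all fell between 0 and 24 h in sham cells under the percentile scaling, none was called under cyclic loess, and all 3 rose under spike-in scaling. Rplp0, the stalk's base, read 8.78, 8.67, 8.72 and 8.58 in S0 and 8.27, 8.32, 8.32 and 8.31 in S24, a difference of -0.38 ± 0.13 (limma adjusted p = 0.026). Rpl5 and Rpl11, which with 5S ribosomal RNA form the particle that can bind Mdm2, differed by -0.25 ± 0.08 (limma adjusted p = 0.027) and -0.42 ± 0.11 (limma adjusted p = 0.0071), and both rose under spike-in scaling. Of the 8 proteins around the exit tunnel of the nascent chain, 5 fell (8 rose under spike-in scaling), and Rpl39, a short protein lining the tunnel, differed by -0.39 ± 0.12 (limma adjusted p = 0.012). Among 5 proteins of the mRNA entry site and decoding centre, 4 fell, 5 rose under spike-in scaling and 1 rose under quantile normalization. Rps2, which was not called, differed by -0.12 ± 0.08 (limma adjusted p = 0.25). Of the 3 beak proteins, Rps12 and Rps27a fell and Rps10 did not pass (limma adjusted p = 0.058), while under spike-in scaling 2 of the 3 rose. Of the 19 members linked to Diamond-Blackfan anaemia, an inherited failure of red cell production, 12 fell and 0 rose, but all 19 rose under spike-in scaling. Rps19 was at -0.37 ± 0.11 (limma adjusted p = 0.017) under the percentile. In this comparison 19.7% of all tested probes were called lower under the percentile. Spike-in scaling moved the median of all tested probes by 0.73.

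Among members known for other features of translation, Rpl3, which reaches the peptidyl transferase centre, differed by -0.35 ± 0.11 at 24 h in sham cells (limma adjusted p = 0.019). Rpl10, which joins the large subunit late, differed by -0.33 ± 0.11 (limma adjusted p = 0.024). Rps25, needed for initiation at some internal ribosome entry sites, differed by -0.40 ± 0.12 (limma adjusted p = 0.017), and Rps14 by -0.29 ± 0.10 (limma adjusted p = 0.025). Rpl41, the shortest ribosomal protein, differed by -0.36 ± 0.14 (limma adjusted p = 0.047). Rpl38, whose loss in mice impairs translation of Hox messages, did not pass at -0.32 ± 0.13 (limma adjusted p = 0.064). Spike-in scaling adds the same 0.73 to each of these 6 differences and turns their sign. In nsPEF cells the 6 ranged from -0.27 for Rpl3 to -0.16 for Rps14, and none passed.

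**Figure D2:**
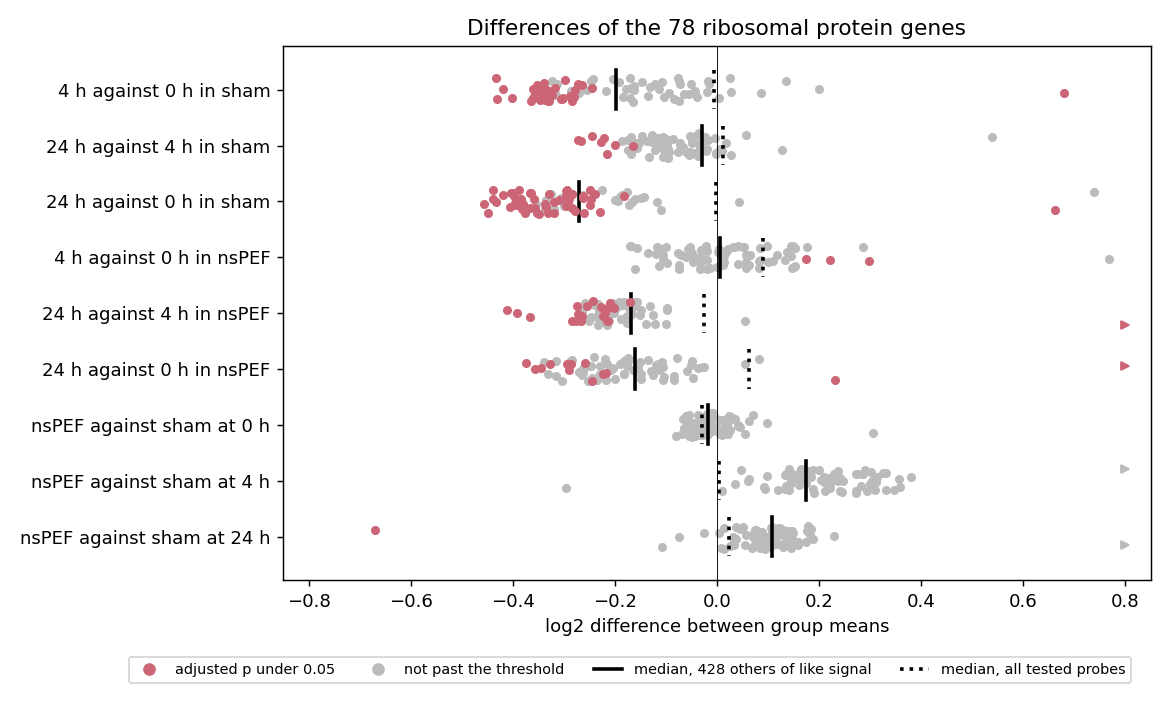
Log2 differences between group means (horizontal axis) of the 78 ribosomal protein genes in 9 comparisons (vertical axis), 1 point a gene, red where limma's adjusted p was under 0.05; arrowheads mark values beyond 0.8. Black lines are the median of 428 other probes of like signal and dotted lines that of all tested probes. Members had medians of -0.31 for sham 24 h against 0 h and 0.21 for nsPEF against sham at 4 h (0.42 and 0.42 under spike-in scaling, -0.05 and -0.02 under quantile normalization).

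Sham cells at 4 h were compared with 0 h next. Of 78 genes 30 fell and 1 rose, against 59.1% of all tested probes called, 29.7% lower and 29.4% higher. The members' median was -0.23, that of the probes of like signal -0.20, with 176 of 428 lower and 18 higher, and that of all tested probes -0.006. Under quantile normalization the members' median was 0.009, with 17 called higher and 8 lower. Without sham 4 h replicate 4, only 7 genes were called, 4 higher and 3 lower, and the median was -0.08. Counts were 9, 19 and 16 without S0 replicate 1, 2 or 3, and 1 where only the 8 arrays compared entered the fit.

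Largest among the called falls at 4 h in sham cells were those of Rpl4, Rps18, Rps20, Rps12 and Rpl31. Rpl4, a tunnel protein, read 8.06, 7.87, 7.89 and 7.81 in S0 and 7.84, 7.65, 7.65 and 6.76 in S4. Its groups overlapped, and the difference of -0.43 ± 0.17 (limma adjusted p = 0.033) became -0.20 (limma adjusted p = 0.16) without sham 4 h replicate 4. Rps18 read 9.32, 9.18, 9.3 and 9.13 in S0 and 8.94, 9.02, 8.99 and 8.25 in S4 at its brightest probe, with no overlap. The dimmer probes of Rps18 and Rpl31 overlapped between these groups. A dimmer Rps18 probe read 7.53, 7.51, 7.55 and 7.28 in S0 and 7.32, 7.35, 7.42 and 7.19 in S4. That of Rpl31 read 7.52, 7.44, 7.42 and 7.39 in S0 and 7.43, 7.44, 7.45 and 7.15 in S4. At the brightest Rps18 probe the difference of -0.43 ± 0.14 (limma adjusted p = 0.012) became -0.25 (limma adjusted p = 0.055) without sham 4 h replicate 4. For Rps20, Rps12 and Rpl31 the differences of -0.42, -0.40 and -0.36 became -0.21, -0.20 and -0.15, and none of the 3 then passed. The call was also lost without S0 replicate 1 or 3 for Rpl4 and Rps12, without S0 replicate 1 for Rps20, and without S0 replicate 1, 2 or 3 for Rpl31. At 24 h against 0 h in sham cells Rps18, Rps20 and Rps12 were called lower, and Rpl4 (limma adjusted p = 0.17) and Rpl31 (limma adjusted p = 0.083) were not. The only member that rose was Rpl37, whose dim probe is described below.

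Between 4 and 24 h in sham cells, 8 of 78 genes fell and 0 rose, against 57.7% of all tested probes called and 29.9% called lower. Among those falling most were Rps13, Rps6, Rpl34 and Rpl22. Rps6, the small-subunit protein phosphorylated by S6 kinases, read 7.81, 7.77, 7.83 and 7.36 in S4 and 7.43, 7.43, 7.46 and 7.38 in S24. Its groups overlapped through the fourth S4 array, and the difference was -0.27 ± 0.08 (limma adjusted p = 0.0089). Where only the 8 arrays compared entered the fit, neither Rps6 (limma adjusted p = 0.069) nor Rpl34 (limma adjusted p = 0.056) passed. Rpl22, an RNA-binding large-subunit protein that is dispensable for translation, differed by -0.22 ± 0.06 (limma adjusted p = 0.0047). These differences were positive under spike-in scaling, between 0.41 and 0.46, and under cyclic loess 15 members rose and 0 fell. Rpl34 lost its call without any 1 of S4 replicates 1 to 3 or S24 replicates 1 to 3. Without sham 4 h replicate 4 the count rose to 53, and it was 5 without any 1 of S4 replicates 1 to 3 or S24 replicates 1 to 3.

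In nsPEF cells few members were called between 0 and 4 h. Of 78 genes 3 rose and 0 fell, against 61.3% of all tested probes called, and the median was 0.01, beside 0.007 for the probes of like signal. Rpl18 and Rps27l were among them. Rpl18, a large-subunit protein, read 7.35, 7.53, 7.24 and 7.17 in E0 and 7.46, 7.47, 7.62 and 7.62 in E4. Its groups overlapped through the second E0 array, and the difference was 0.22 ± 0.09 (limma adjusted p = 0.031). Rps27l, a p53-responsive paralog, differed by 0.18 ± 0.07 (limma adjusted p = 0.039). Neither passed where only the 8 arrays compared entered the fit (limma adjusted p = 0.074 and 0.066), under quantile normalization or under cyclic loess. Rpl18 lost its call without E0 replicate 3 or 4 or E4 replicate 3 or 4, and Rps27l without E0 replicate 3 or 4 or E4 replicate 1 or 2. The count was 6 without E0 replicate 2 and 1 without E0 replicate 3 or 4, and under cyclic loess 22 members were called lower and 1 higher.

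From 4 to 24 h in nsPEF cells, 22 of 78 genes fell and 1 rose, against 56.6% of all tested probes called and 29% called lower. The median was -0.21, beside -0.17 for the probes of like signal, and 0.23 under spike-in scaling. The 5 largest called falls were those of Rps6, Rpl37, Rps15a, Rps13 and Rpl34. Rps6 read 7.9, 7.86, 7.8 and 7.7 in E4 and 7.42, 7.45, 7.35 and 7.38 in E24, with no overlap. Its difference of -0.41 ± 0.08 (limma adjusted p = 0.00024) was 0.02 under spike-in scaling. Rps15a differed by -0.37 ± 0.11 (limma adjusted p = 0.0092). The call was lost for Rpl37 with normexp background correction (-0.18, limma adjusted p = 0.12) and without E4 replicate 1 or 3 or E24 replicate 1 or 4, and for Rpl34 without E4 replicate 3 or E24 replicate 1. The member called higher was Rps4l, at 1.20 ± 0.50 (limma adjusted p = 0.046), from a group with 1 of 4 arrays well above background. It was 0.25 with normexp background correction (limma adjusted p = 0.25), did not pass where only the 8 arrays compared entered the fit (limma adjusted p = 0.12), and lost its call without E4 replicate 1, 2 or 4 or E24 replicate 1, 2 or 4. Counts were 14, 14 and 13 without E4 replicate 1, 2 or 3, and 10, 14 and 15 without E24 replicate 1, 3 or 4.

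Over the whole interval from 0 to 24 h in nsPEF cells, 11 of 78 genes fell and 2 rose, against 42.2% of all tested probes called and 18.3% called lower. The median was -0.21, beside -0.16 for the probes of like signal and 0.33 under spike-in scaling. Among the called members, falls were largest for Rpl17, Rpl39, Rpl36a, Rps4x and Rpl13a. Rpl17, a protein at the tunnel exit, read 7.76, 7.75, 7.56 and 7.55 in E0 and 7.37, 7.32, 7.23 and 7.21 in E24, with no overlap and a difference of -0.37 ± 0.10 (limma adjusted p = 0.0061). Rpl13a, which also takes part in silencing of inflammatory messages, differed by -0.29 ± 0.09 (limma adjusted p = 0.013). The 5 were positive under spike-in scaling, between 0.17 and 0.25. Rpl39 lost its call without E0 replicate 1 or 2, Rpl13a without E0 replicate 2 and Rps27l without E24 replicate 2. The count was 8 without E0 replicate 2 and 26 without E0 replicate 3. Both rising members were paralogs, Rps27l at 0.23 ± 0.07 (limma adjusted p = 0.014) and Rps4l.

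Rps4l was at the edge of detection. It was well above background on 0 arrays of S0 and E0, 2 of S4, 1 of E4, 2 of S24 and all 4 of E24, where it read -2.73, -2.56, -3.42 and -2.94. In E0 it read -4.41, -4.09, -5.38 and -5.66. Under the percentile scaling its level was at least 2.64-fold, or 1.4 log2 units, higher in E24 than in E0. This takes the faintest signal well above background on each array as the floor. The difference between the measured values had a limma adjusted p = 0.0035. With normexp background correction the log2 difference was 0.36, below that bound, and the call was lost (limma adjusted p = 0.11). Between E24 and S24 it differed by 1.54 ± 0.50, which did not pass (limma adjusted p = 0.078).

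The effect of the pulses was asked within each time point. At 0 h, 0 of 78 genes were called, and 0 had an unadjusted p under 0.05 in limma, against 0.127% of all tested probes called (0.0716% higher, 0.0557% lower). The median difference was -0.01. At 4 h 0 of 78 were called in limma against 3.31% of all tested probes (1.71% higher, 1.6% lower), but 31 had an unadjusted p under 0.05 and 77 of 78 differences were positive, with a median of 0.21. The probes of like signal gave a median of 0.18, with 1 of 428 called, 158 at an unadjusted p under 0.05 and 422 positive and 6 negative differences. All 4 E4 arrays lay above all 4 S4 arrays for 39 of 78 genes, beside 7.62% of all tested probes and 40.7% of those of like signal. Without sham 4 h replicate 4 the members' median difference was 0.09. It was -0.02 under quantile normalization, and under spike-in scaling 73 genes were called higher with a median of 0.42. That scaling moved the median of all tested probes by 0.21 in this comparison.

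The largest difference at 4 h among the role genes was that of Rps12, a beak protein, which read 8.52, 8.47, 8.41 and 7.68 in S4 and 8.57, 8.65, 8.74 and 8.66 in E4. The groups did not overlap, and the difference was 0.38 ± 0.15, with a 95% interval from 0.07 to 0.69 (limma adjusted p = 0.15). It was 0.18 without sham 4 h replicate 4 and 0.08 under quantile normalization. Rplp0 differed by 0.27 ± 0.13, with an interval from 0.0028 to 0.54 (limma adjusted p = 0.23), and by 0.10 without that array and -0.01 under quantile normalization. At 24 h the median over the 78 genes was 0.11 (-0.01 under quantile normalization), the same to 2 decimals as that of the probes of like signal, and 1 gene was called, lower, against 4.82% of all tested probes called and 2.18% called lower. Over the 3 times together 1 gene was called, lower, against 8.84% (4.39% higher, 4.44% lower), with a median of 0.10 (-0.01 under quantile normalization). The time by treatment interaction called 0 of 78 genes in limma, against 0.377% of all tested probes, and 1, Rpl37, had an unadjusted p under 0.05.

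That 1 gene called at 24 h, and over the 3 times, was Rpl37. Its probe read -3.17, -2.99, -2.99 and -2.97 in S0, -2.24, -2.44, -2.24 and -2.48 in S4 and -2.63, -1.78, -2.28 and -2.77 in S24. In nsPEF cells it read -3.05, -2.91, -2.9 and -2.87 in E0, -2.53, -2.72, -2.63 and -2.71 in E4 and -3.15, -2.98, -2.8 and -3.22 in E24. All 4 arrays of E24 thus lay below all 4 of S24, and all S4 arrays above all S0 arrays. Between nsPEF and sham at 24 h it differed by -0.67 ± 0.15 (limma adjusted p = 0.015), and by -0.61 without E24 replicate 4, which no longer passed (limma adjusted p = 0.053). The difference was -0.19 (limma adjusted p = 0.23) with normexp background correction, and it did not pass where only the 8 arrays compared entered the fit (limma adjusted p = 0.17). The rise at 4 h in sham cells was 0.68 ± 0.15 (limma adjusted p = 0.00045), and 0.19 with normexp background correction, which did not pass (limma adjusted p = 0.098). Over the 3 times the difference was -0.29 ± 0.08 (limma adjusted p = 0.039). It was -0.06 with normexp background correction (limma adjusted p = 0.42), and the call was lost under 14 of the 24 omissions of a single array, those of S0 replicates 2 to 4, E0 replicates 1 and 2, S4 replicates 1 and 3, E4 replicates 2 to 4, S24 replicate 3 and E24 replicates 1, 2 and 4. This probe was the only one for the gene, and lay far below the signal of the other housekeeping members.

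How far a gene's value depended on its signal was described next. In sham cells at 4 h against 0 h, the other tested probes had a median difference of 0.07 at levels from 2 to 4, -0.05 from 6 to 7, -0.13 from 7 to 8 and -0.33 above 8. For nsPEF against sham at 4 h the same bands gave -0.06, 0.06, 0.14 and 0.28. The members lie in the upper bands, as the plot of difference against level shows. Within genes the same order held. Of 45 genes with several tested probes, the brightest probe had the lower difference in 38 at 4 h against 0 h in sham cells, and the higher difference in 38 for nsPEF against sham at 4 h. The part of signal level in the members' results was not tested.

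**Figure D3:**
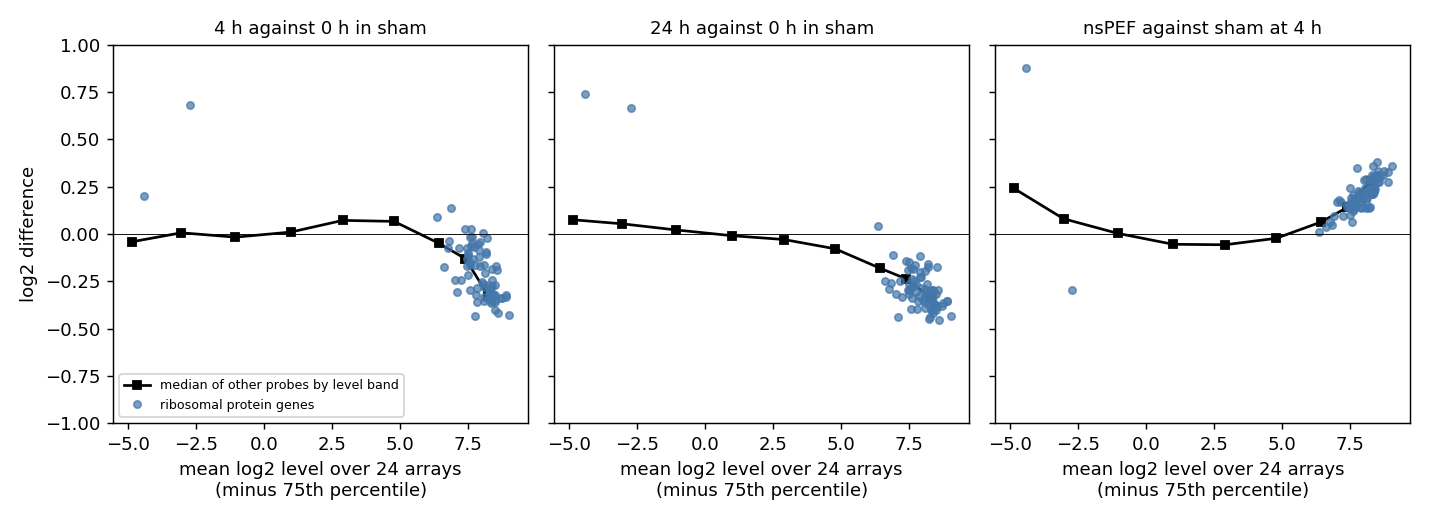
Log2 difference (vertical axis) against mean log2 level over the 24 arrays (horizontal axis) in 3 comparisons. Blue points are the 78 ribosomal protein genes and black squares the medians of all other tested probes in bands of level; above level 8 these medians were -0.33, -0.33 and 0.28, and the members lie around them. Under quantile normalization the members' medians were 0.009, -0.05 and -0.02.

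A few genes carried a second probe far dimmer than the first, and most of these rose at 4 h. In 6 genes (Rpl9, Rpl10a, Rpl30, Rps15a, Rps20, Rps27a) a probe lay at least 3 log2 units below the brightest. Between 0 and 4 h 5 of the 6 rose in sham cells and all 6 in nsPEF cells, beside 29.4% and 33.5% of all tested probes called higher. The sixth, Rpl9, was -0.04 in sham cells under quantile normalization, and passed as higher there with normexp background correction (limma adjusted p = 0.021) and without sham 4 h replicate 4 (limma adjusted p = 0.039). The dim probe of Rpl10a, a large-subunit protein of the L1 stalk, read 2.04, 1.93, 2.08 and 1.95 in S0 and 3.02, 3.17, 3.11 and 3.39 in S4. In nsPEF cells it went from between 1.94 and 2.09 to between 3.25 and 3.41, and it was back at 1.93, 1.88, 1.85 and 2 in S24. The rise in sham cells was 1.17 ± 0.08, or 2.26-fold (limma adjusted p = 6.8e-11), while both bright probes of the gene, which match another RefSeq transcript, had differences of -0.33 and -0.34 and were called lower.

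The dim probe of Rps20 read -0.16, -0.04, -0.26 and -0.07 in S0 and 0.82, 0.69, 0.71 and 0.72 in S4, a rise of 0.87 ± 0.08 (limma adjusted p = 5.3e-09). That of Rpl30, a large-subunit protein, rose by 0.64 ± 0.06 (limma adjusted p = 1.1e-08) and was the only one of the 6 to pass as higher at 24 h in sham cells, at 0.27 ± 0.06 (limma adjusted p = 0.0013). Of all tested probes 16.9% were called higher at 24 h against 0 h in sham cells. Rps27a, which is made as a fusion with ubiquitin, gave -3.33, -2.67, -3.15 and -1.94 in S0 and -1.12, -1.32, -1.33 and -1.37 in S4 at its dim probe, a rise of 1.49 ± 0.34 (limma adjusted p = 0.0009), and 0.66 with normexp background correction. At Rps15a the rise was 1.47 ± 0.31 (limma adjusted p = 0.00036), from a group in which 3 of 4 arrays were well above background. With normexp background correction it was 0.26 and did not pass (limma adjusted p = 0.056). Rpl9 at 0.10 ± 0.05 did not pass in sham cells (limma adjusted p = 0.11). Between nsPEF and sham at 4 h none of the 6 dim probes was called, beside 3.31% of all tested probes, and the largest difference was 0.43 ± 0.31 for Rps15a (limma adjusted p = 0.44). That difference was 0.07 without E4 replicate 1, whose -1.25 lay above the others of its group, and with normexp background correction it passed at 0.39 (limma adjusted p = 0.039). The dim probes of Rpl30 and Rps27a, like that of Rpl10a, match another RefSeq transcript than the bright probes of their gene. Those of Rps20, Rps15a and Rpl9 match the same one. What each dim probe detects was not tested.

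**Figure D4:**
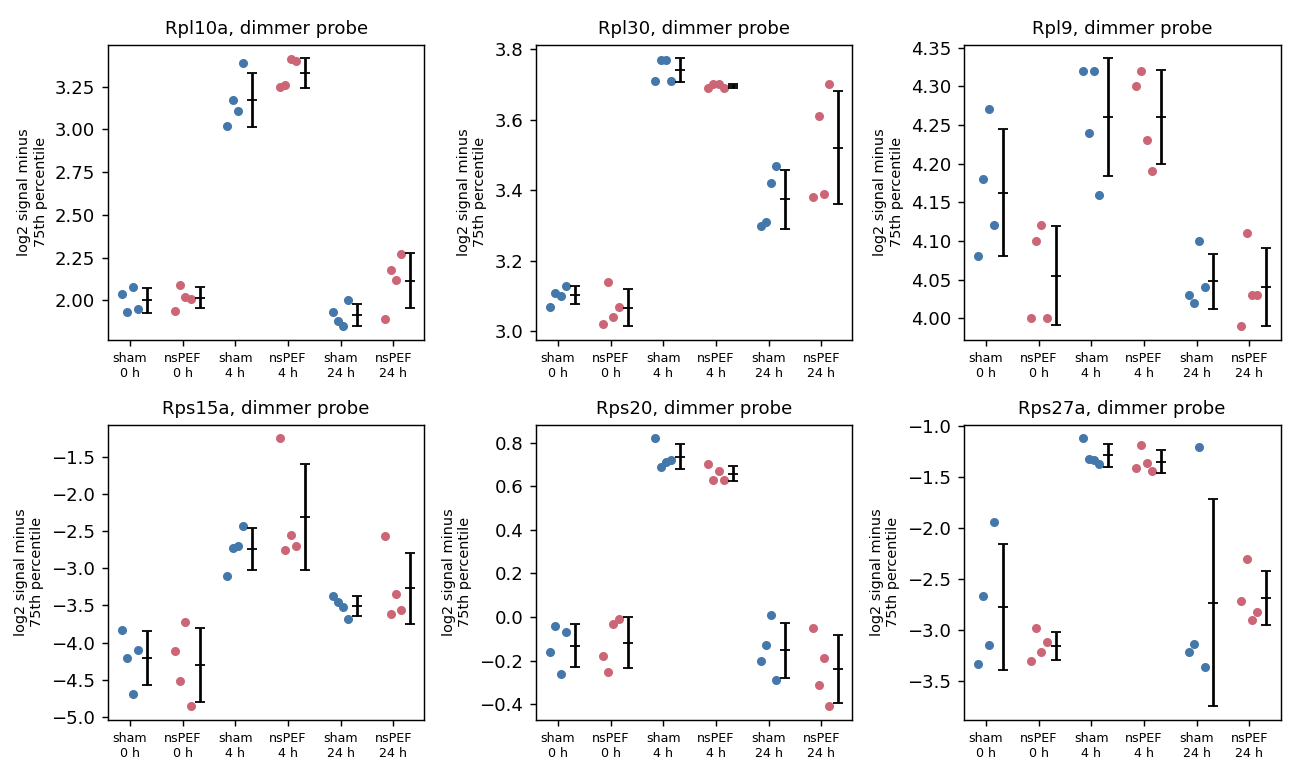
Log2 signal minus the array's 75th percentile (vertical axes, each with its own range) of the dim probe of 6 ribosomal protein genes, 1 point per array in the 6 groups (horizontal axes), with mean and SD beside the points. The Rpl10a probe stands between 3.02 and 3.41 in both 4 h groups and no higher than 2.27 in the others; Rpl9, the weakest, changes sign in sham cells at 4 h under quantile normalization.

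Genes around the ribosome were described for comparison. Of 22 translation factors and other TOP messages, 4 rose and 4 fell at 4 h against 0 h in sham cells, and 11 fell and 0 rose at 24 h against 0 h, with a median of -0.22 (0.51, with 21 higher, under spike-in scaling). These were 36.4% called at 4 h, beside 59.1% of all tested probes, and 50% called lower at 24 h, beside 19.7%. Eef2, the elongation factor that moves the ribosome along, differed by -0.35 ± 0.07 at 24 h (limma adjusted p = 0.00096), and Fau, the source of ribosomal protein S30, by -0.41 ± 0.14 (limma adjusted p = 0.022). Among 25 regulators of ribosomal protein synthesis, 16 rose and 5 fell at 4 h in sham cells, and 15 rose and 6 fell in nsPEF cells, against 59.1% and 61.3% of all tested probes called, with positive medians under all 7 scalings. Larp1, which binds the TOP tract, rose by 1.17 ± 0.07 in sham (limma adjusted p = 4.9e-12) and 1.11 ± 0.07 in nsPEF cells (limma adjusted p = 1.1e-11). Mtor, the kinase upstream of it, fell by 0.73 in sham (limma adjusted p = 3e-07) and 1.02 in nsPEF cells (limma adjusted p = 2e-09). Myc, a transcription factor that drives ribosome production, rose by 0.96 ± 0.06 and 1.11 ± 0.06 over the same interval. It was the only one of the 25 called for nsPEF against sham at 4 h, at 0.27 ± 0.06 (limma adjusted p = 0.017), beside 3.31% of all tested probes called. The Myc call was not recomputed without sham 4 h replicate 4.

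The mitochondrial ribosomal proteins, which serve a separate ribosome, numbered 78 tested genes. In sham cells 28 rose and 31 fell at 4 h against 0 h, with a median of -0.06, and 5 rose and 21 fell at 24 h against 0 h (78 rose under spike-in scaling). Over 24 h in nsPEF cells 22 rose and 8 fell, with a median of 0.06. The shares called were 75.6%, 33.3% and 38.5%, beside 59.1%, 36.6% and 42.2% of all tested probes. For nsPEF against sham at 4 h 2 fell and 0 rose, against 3.31% of all tested probes called, and 66 of 78 differences were negative, with a median of -0.06 (0.15 under spike-in scaling), where 1 of the 78 cytosolic members was negative. Their signals were lower than those of the cytosolic members, and the difference between both families was not tested.

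**Figure D5:**
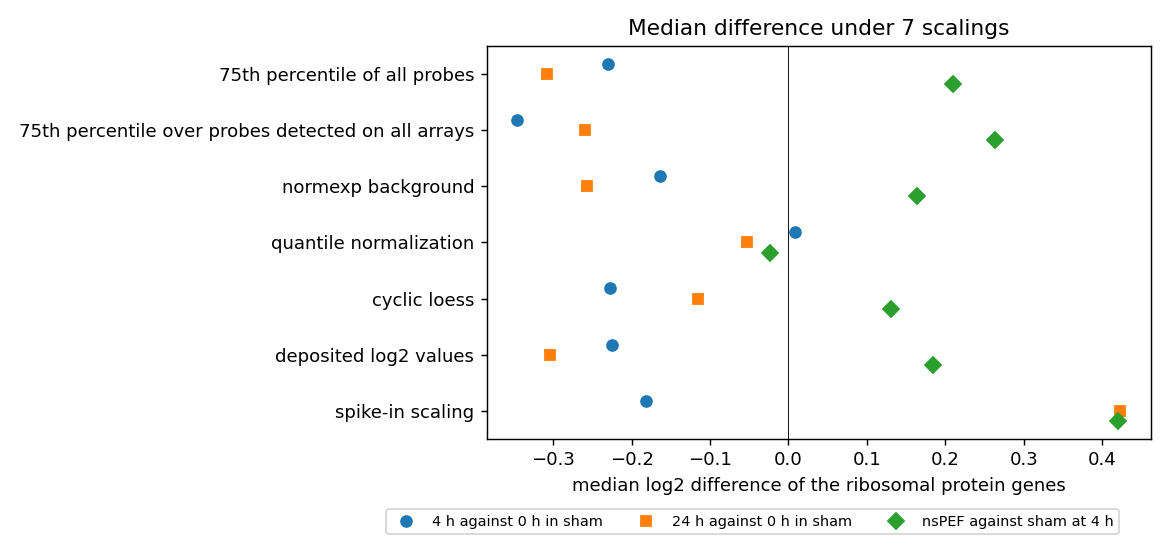
Median log2 difference of the ribosomal protein genes (horizontal axis) in 3 comparisons under 7 ways of scaling the arrays (vertical axis). Sham 24 h against 0 h lay between -0.31 and -0.05 under 6 of them and at 0.42 under spike-in scaling, and sham 4 h against 0 h between -0.35 and 0.009; nsPEF against sham at 4 h lay between 0.13 and 0.42 under 6 and at -0.02 under quantile normalization.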

How the data were processed

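RNA of 24 samples was hybridised to one-colour Agilent mouse arrays, and the authors extracted background-subtracted, detrended intensity values with Agilent Feature Extraction 12.0. The authors also deposited a table of log2 values normalized by the 75th percentile and centred on each probe's median, used here as an alternative. Its columns had medians from -0.203 to 0.289, and on centred probes their slope on the scanner values was 0.997 to 1.001, so scale, centring and direction are known. From the deposited intensity, control and outlier spots were removed, spots of a probe averaged, and log2 signal minus each array's 75th percentile computed. Of 56605 probes 34566 matched a RefSeq symbol by accession, and each gene was represented by its brightest tested probe. A model with 6 group means was fitted with limma 3.58.1 in R 4.3.3 over all 37684 tested probes, with Benjamini-Hochberg adjustment over all of them and a threshold of 0.05. The model fit, the scaling step and the rule for members were tested on simulated or made-up data. In the simulation probes varied independently, and its shifts were larger than most differences reported here. It therefore does not cover shifts shared by the probes of an array. Nothing in the labels says that replicates came from separate cultures, so p-values measure the spread between these samples. The number of arrays limits the precision; 0 spots were saturated. Members and gene lists were chosen with earlier results of these data known. Named genes were the 5 members with the largest called rise and fall in each comparison, genes of fixed structural roles, paralogs, and genes whose probes disagreed. Some members that met this rule are not reported here by name. Alternatives covered scaling, background, filters, probe choice, spot rows, replicate block and left-out replicates. The gene lists were recomputed only under the scalings. Counting each probe, and the alternatives for dim second probes and for Rps12 and Rplp0 at 4 h, were chosen after seeing the data.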

Additional observations from a re-analysis of the deposited data

Results flagged for a closer look

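In groups of 4 arrays, a value was singled out where its gap to the nearest array was large against the group's whole range, by Dixon's 95% critical value. Of 108 groups examined 11 met this, where chance gives about 1 in 20, and 8 of the 11 were the array of sham 4 h replicate 4. On that array the median of the ribosomal protein genes was 7.52 against 8.04 to 8.07 on the others of its group. Rplp0 read 7.8 there (others 8.47 to 8.53), Rps18 8.25 (8.94 to 9.02) and Rpsa 7.56 (8.15 to 8.26). Rps4x read 6.59 (7.12 to 7.17), Rps6 7.36 (7.77 to 7.83), Rpl22 6.72 (6.91 to 6.93) and the faint Rps4l -6.05 (-4.79 to -4.55). These 8 values share an array and are not separate observations.

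The other 3 lay on different arrays. The dim Rpl37 probe read -3.17 on S0 replicate 1 (others -2.99 to -2.97). The dim second probe of Rps15a read -1.25 on E4 replicate 1 (others -2.75 to -2.55), and that of Rps27a -1.21 on S24 replicate 3 (others -3.36 to -3.14).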

How the results depend on the processing

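Counts of ribosomal protein genes called are given in the order sham 4 h against 0 h, 24 h against 4 h, 24 h against 0 h, then the same in nsPEF cells, where the percentile scaling gave 31, 8, 53, 3, 23 and 13. Leaving out replicates gave 2 to 42, 1 to 54, 9 to 71, 1 to 6, 2 to 40 and 3 to 41, and for nsPEF against sham 0 to 0 at 0 h, 0 to 0 at 4 h, 0 to 1 at 24 h, 0 to 2 over the 3 times and 0 to 0 for the interaction. Quantile normalization gave 25 (17 higher), 19, 15, 17 (9 higher), 10 and 22. Cyclic loess gave 55, 15 (all higher), 23, 23 (22 lower), 8 and 31. Scaling to 6 of 10 spike-in probes gave 4, 78, 74, 14, 25 and 56, with every call higher except in sham 4 h against 0 h (1 higher, 3 lower), 73 for nsPEF against sham at 4 h and 59 over the 3 times, while it moved the median of all tested probes by 0.05, 0.68, 0.73, 0.11, 0.44 and 0.55, by 0.21 for nsPEF against sham at 4 h and by 0.11 over the 3 times. Counting each probe, chosen after seeing the data, gave 60, 40, 108, 18, 63 and 35.

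For single comparisons, the percentile over detected probes gave 62 for sham 4 h against 0 h, 0 for sham 24 h against 4 h, 4 for nsPEF 4 h against 0 h (3 lower), 4 for nsPEF 24 h against 4 h and 0 over the 3 times. Array weights gave 53 for sham 24 h against 4 h, 10 for nsPEF 4 h against 0 h, 3 for nsPEF against sham at 24 h and 0 over the 3 times. Centring by bands of 24 spot rows gave 7 for nsPEF 4 h against 0 h (5 lower), 38 for nsPEF 24 h against 0 h, 1 for nsPEF against sham at 4 h and 4 over the 3 times (all higher). The deposited log2 values, and likewise keeping marked spots, gave 23 for nsPEF 24 h against 0 h and 2 over the 3 times. A gene's dimmest probe gave 32, 14, 43 and 20 for sham 24 h against 4 h, nsPEF 4 h against 0 h, 24 h against 4 h and 24 h against 0 h, and the mean of its probes 16, 10 and 37 for the first 3 of these. No filter gave 5, 1 and 14 for the same 3 and 2 for nsPEF against sham at 24 h and over the 3 times. Normexp gave 18 for sham 24 h against 4 h, 8 for nsPEF 4 h against 0 h, 21 for nsPEF 24 h against 0 h, and 1, 0 and 2 for nsPEF against sham at 4 h, at 24 h and over the 3 times (both higher). Fitting only the arrays compared gave 1 (higher) for sham 4 h against 0 h, 3 for sham 24 h against 4 h, 48 for nsPEF 24 h against 4 h and 0 for nsPEF against sham at 24 h. With the replicate number as a block the count for nsPEF 24 h against 0 h was 21, and no other count moved by over 1.5 times. In 60 pairs, same-numbered samples correlated between -0.054 and 0.093, and in 23 they were the best match, among them all 4 of S4 with E4 and all 4 of S4 with S24, a hint from the data. No pair passed 0.1, so the numbers were not used as a pairing. The cause of these moves was not tested.

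Differences that changed sign were those of Rps20 at 4 h in sham cells, 0.00081 by the mean of its probes and 0.87 by its dimmest probe, and of Rpl9's dim probe there, -0.039 by quantile normalization and -0.019 by the percentile over detected probes. For nsPEF against sham at 4 h, Rplp0 was -0.013 by quantile normalization, and the dim probe of Rps15a lay between -0.048 and 0.66 over the omissions of a replicate. Under spike-in scaling the sign turned for Rps13 0.41, Rps6 0.42, Rpl34 0.46 and Rpl22 0.46 (sham, 24 h against 4 h), for Rps20 0.27, Rpsa 0.28, Rps4x 0.29 and Rps18 0.30 (sham, 24 h against 0 h), for Rps6 0.024, Rpl37 0.044, Rps15a 0.070, Rps13 0.15 and Rpl34 0.16 (nsPEF, 24 h against 4 h), and for Rpl17 0.17, Rpl39 0.19, Rpl36a 0.20, Rps4x 0.22 and Rpl13a 0.25 (nsPEF, 24 h against 0 h).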
